A study of Mus musculus with 18 samples.

Results

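The genes described here encode the calcium release channels and the calcium pumps of the endoplasmic reticulum (ER): the IP3 receptors Itpr1, Itpr2 and Itpr3, the ryanodine receptors Ryr1, Ryr2 and Ryr3, and the SERCA pumps Atp2a1, Atp2a2 and Atp2a3. They were taken by name and Ensembl ID, and are 9 of the 32286 entries of the count table. All 9 passed the filter on low counts and were tested among 17841 genes in all. The libraries are mRNA sequencing of 2 mammary carcinoma lines of the mouse, AT-3 and E0771, into which a doxycycline-inducible retroviral vector had been brought. Within each line the vector held wild-type MRTFA, Y238A MRTFA or no insert, and each of these 6 groups had 3 libraries, 18 in all. Every group, empty vector included, had received doxycycline at 2 µg/ml for 48 h, so no group without the drug was compared here. MRTFA works with the transcription factor SRF as its coactivator and is held back by monomeric actin, and the Y238A form is labelled as deficient in binding SRF. The title of the series names cytoplasmic calcium, and the question asked here is how transcripts for the release and refilling of the ER store differed between constructs and between lines.

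The ER is the main calcium store of most cells. IP3 receptors open when they bind IP3, which phospholipase C makes below Gq-coupled receptors, together with cytosolic calcium. Ryanodine receptors open on cytosolic calcium or by coupling to voltage-gated channels and are best known from muscle and neurons, while SERCA pumps use ATP to return calcium to the ER. Epithelial cells are known mainly for IP3 receptors as release channels and for SERCA2, the product of Atp2a2, as the pump.

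Library totals lay between 81265466 and 115260128 counts, and levels are given as CPM, counts scaled to library size after TMM normalization. The labels do not say whether the replicates were separate cultures, so p-values measure the spread between these libraries, which may be technical. The MRTFA entry, taken as the construct, averaged 5434 ± 1445 CPM with wild-type MRTFA, 2105 ± 195 CPM with Y238A and 0.0160 ± 0.0138 CPM with empty vector in AT-3 (SD, n = 3 each). In E0771 it averaged 761 ± 91.1 CPM, 319.7 ± 37.4 CPM and 0.0736 ± 0.0639 CPM in the same groups. Construct levels therefore differed between wild type and Y238A and between lines. In AT-3 the summed level of 7 epithelial markers was 8.64 to 8.93 CPM with empty vector and that of 5 fibroblast markers 499 to 542 CPM, while in E0771 with empty vector the sums were 305 to 330.0 CPM, nearly all Krt8, and 85 to 102 CPM. In AT-3 with empty vector Krt14, at 6.83 ± 0.111 CPM, was the highest epithelial marker and the other 6, Epcam (0.760 ± 0.108 CPM) and Krt8 (0.0573 ± 0.0306 CPM) among them, averaged under 1 CPM. With wild-type MRTFA, 3 of the 7 averaged at least 1 CPM in AT-3. Some libraries shared transcripts with another group. The median share of the AT-3 level, taken over 240 genes that E0771 hardly expressed, was 0.508% in E0771 wild-type replicate 2, 0.269% in E0771 Y238A replicate 1 and 1.35% in E0771 empty vector replicate 2. For 33 genes that AT-3 with empty vector hardly expressed, AT-3 Y238A replicate 1 had a median 1.29% of what AT-3 with wild-type MRTFA had. Results are also given without these 4 libraries where that changes a call, and below they are called the 4 libraries that shared most transcripts. AT-3 Y238A replicates 2 and 3 had 0.270% and 0.111% over the same 33 genes and were kept. The share of that replicate 2 was as high as that of E0771 Y238A replicate 1, over another set of genes. In bulk samples fewer cells of a type and less RNA per cell cannot be told apart.

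Promoter sequences were at hand for 6 of the 9 genes. The 250 bases before the RefSeq start (GRCm38.p6) are shown for Itpr3, the IP3 receptor gene with the highest level per kilobase in every group, and for Ryr1 and Ryr2, which passed the test in AT-3 with wild-type MRTFA. They are written 5′ to 3′ on the gene's strand, at chr17:27057054-27057303 (plus), chr7:29125152-29125401 (minus) and chr13:12106946-12107195 (minus), and capitals mark CG dinucleotides.
Itpr3: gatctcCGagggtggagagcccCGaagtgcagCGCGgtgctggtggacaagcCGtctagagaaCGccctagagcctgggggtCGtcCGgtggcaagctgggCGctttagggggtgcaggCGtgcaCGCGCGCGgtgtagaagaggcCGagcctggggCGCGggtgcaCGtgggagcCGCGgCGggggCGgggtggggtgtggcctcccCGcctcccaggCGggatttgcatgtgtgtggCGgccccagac
Ryr1: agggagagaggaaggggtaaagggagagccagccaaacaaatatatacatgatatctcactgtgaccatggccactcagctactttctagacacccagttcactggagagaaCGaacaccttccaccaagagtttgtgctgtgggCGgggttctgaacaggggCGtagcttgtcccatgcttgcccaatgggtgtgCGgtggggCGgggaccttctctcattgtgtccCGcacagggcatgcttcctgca
Ryr2: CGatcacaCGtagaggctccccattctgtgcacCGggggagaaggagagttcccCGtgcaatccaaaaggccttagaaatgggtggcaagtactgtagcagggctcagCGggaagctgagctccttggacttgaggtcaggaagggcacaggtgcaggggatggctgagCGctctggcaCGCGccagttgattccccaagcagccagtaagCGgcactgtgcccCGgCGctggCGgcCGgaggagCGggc
The stretch before Itpr3 held 25 CG dinucleotides and that before Ryr2 held 14, while that before Ryr1 held 6, which is also the median over the 32851 promoters of the table (quartiles 2 and 16). Itpr2 had 22, Atp2a3 20 and Atp2a1 3. The CArG box, the motif that SRF is known to bind, and CATTCC, known as bound by TEAD factors, were looked for on both strands of the 300 bases that run to 50 bases past the start. Each motif was found in 0 of the 6 promoters, against 1.63% and 14.7% of all promoters. The absence of these letters from such a short window says nothing about binding elsewhere.

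**Figure D1:**
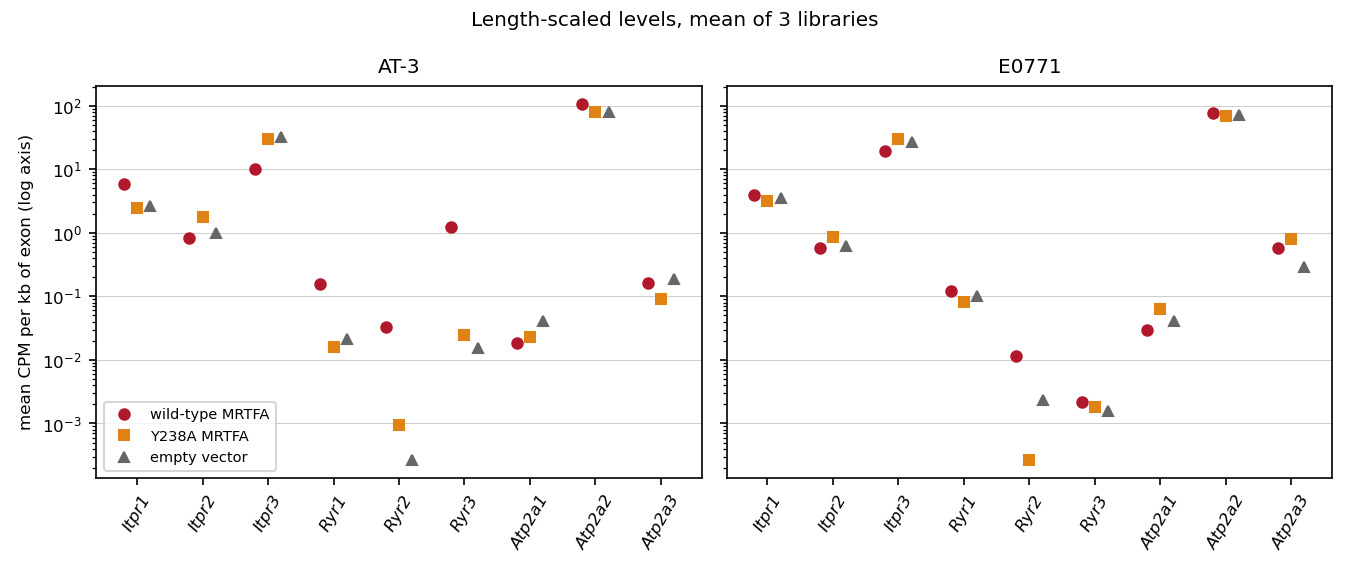
Mean level of each gene in CPM per kilobase of exon (log axis) with wild-type MRTFA, Y238A MRTFA and empty vector, AT-3 on the left and E0771 on the right, mean of 3 libraries. Atp2a2 and Itpr3 stand highest in every group, and Ryr3 of AT-3 cells with wild-type MRTFA stands far above its other groups.

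Per kilobase of exon, Atp2a2 and Itpr3 were the most abundant of the 9 transcripts in all 6 groups. With empty vector, Atp2a2 averaged 78.3 ± 1.59 CPM per kilobase in AT-3 and 72.0 ± 1.03 in E0771, and Itpr3 averaged 32.5 ± 1.88 and 26.9 ± 0.188 on the same scale (SD, n = 3 each). The plot of length-scaled levels shows the ryanodine receptors and the other SERCA genes far below them. Summed over the 3 ryanodine receptors, the level was 0.0376 ± 0.00950 CPM per kilobase in AT-3 and 0.103 ± 0.00680 in E0771 with empty vector, against 36.2 ± 2.11 and 31.0 ± 0.303 for the 3 IP3 receptors. Release channel transcripts of cells with empty vector were thus almost all IP3 receptors, and mostly Itpr3.

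The lines already differed without MRTFA. Between AT-3 and E0771 with empty vector, 7 of the 9 genes passed the test at an adjusted p under 0.05 (edgeR's quasi-likelihood test, Benjamini-Hochberg over all genes), and so did 72.0% of all genes tested. Itpr2, Itpr3, Ryr3 and Atp2a2 were higher in AT-3 (4 of 9, where 36.8% of all genes were), and Itpr1, Ryr1 and Ryr2 were lower in AT-3 than in E0771 (3 of 9, where 35.2% of all genes were). The groups did not overlap for 7 of 9 genes, against 75.7% of all genes. Both shares lie close to those of the whole table. Of these differences, Ryr1 (log2 difference AT-3 minus E0771 of -2.20 ± 0.27, SE) and Ryr3 (3.27 ± 0.74) were the largest among those with groups that did not overlap. Ryr2 (-2.94 ± 1.27, adjusted p = 0.0447) rested on 2 counts in AT-3 against 20 in E0771, a ratio of 0.115 (95% counting interval 0.0130 to 0.473), its groups overlapped, and it was -5.72 (adjusted p = 0.0219) without AT-3 empty vector replicate 1, which held both AT-3 counts, and -3.53 (0.00819) without E0771 empty vector replicate 3. It no longer passed without any 1 of 4 libraries (AT-3 empty vector replicates 2 and 3 and E0771 empty vector replicates 1 and 2, adjusted p 0.0809 to 0.181). Without the 4 libraries that shared most transcripts, Ryr2 was at -2.16 and did not pass either (adjusted p = 0.173). The Atp2a2 difference of 0.12 ± 0.04 no longer passed with library totals as scaling (0.04, adjusted p = 0.296) or without AT-3 empty vector replicate 3 or E0771 empty vector replicate 1 (adjusted p = 0.0563 and 0.0541).

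**Figure D2:**
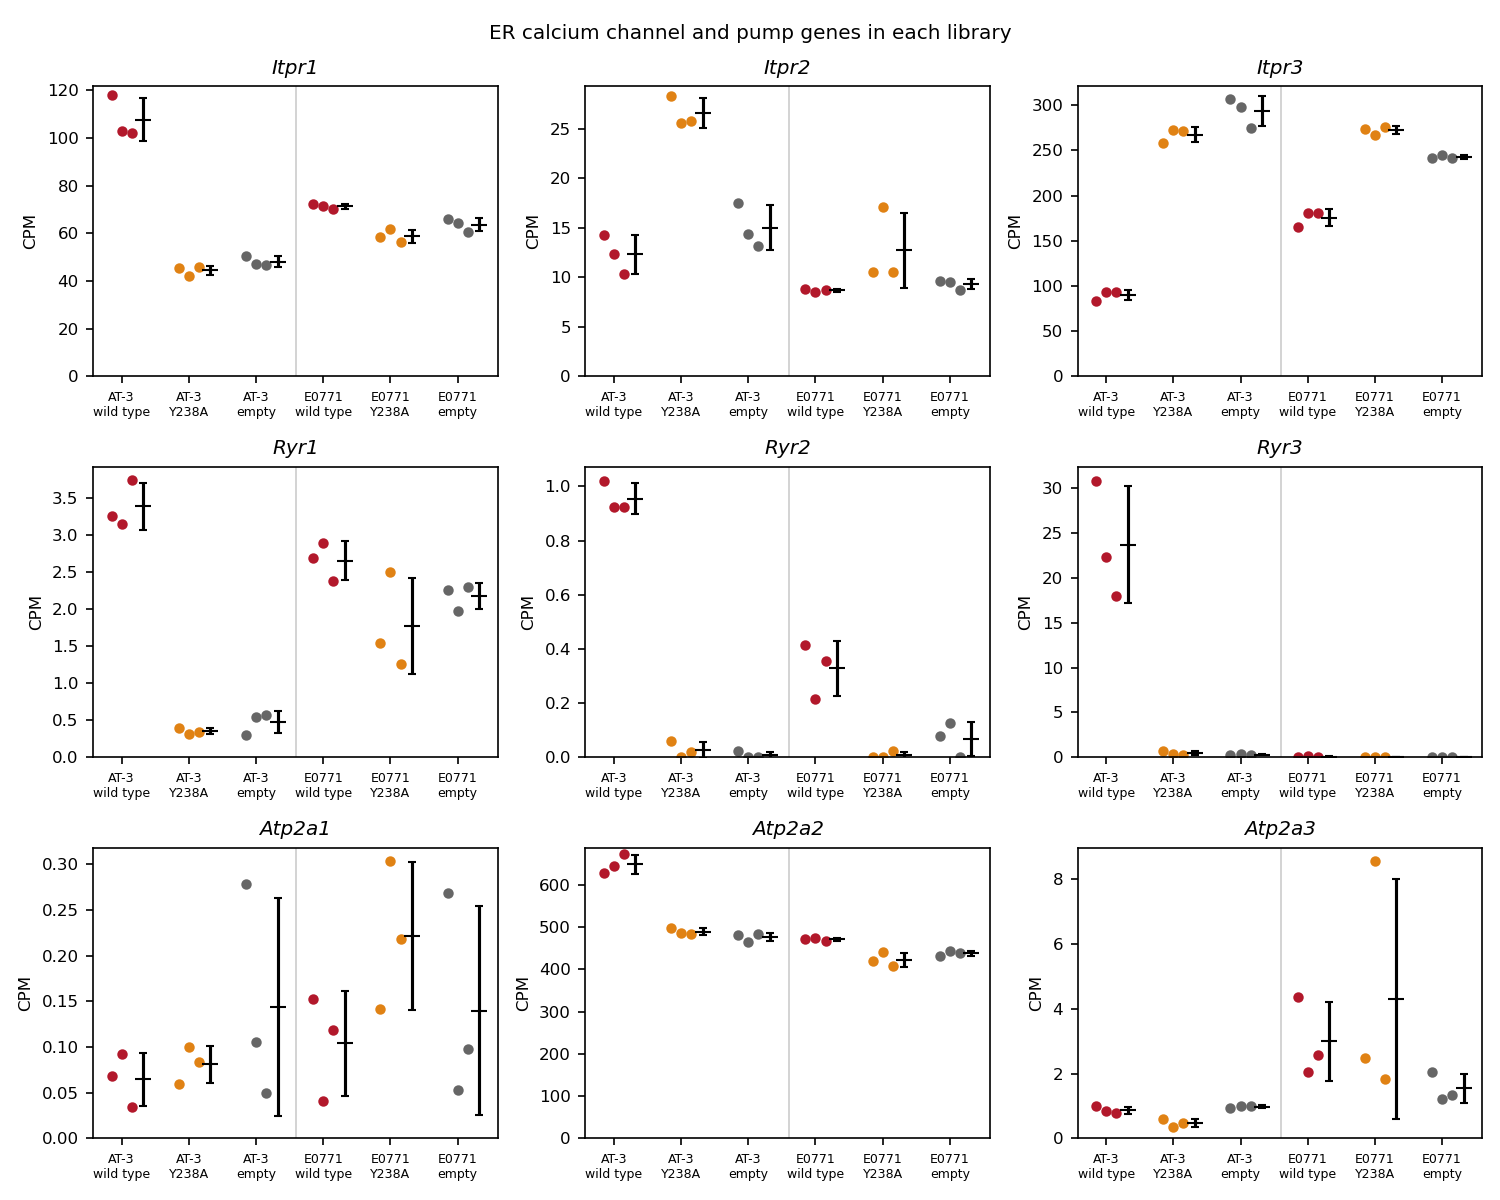
Level of each of the 9 genes in CPM (linear axes starting at 0) in every library, with wild-type MRTFA (red), Y238A MRTFA (orange) and empty vector (grey), and the mean ± SD of 3 libraries in black. Itpr3 is low and Itpr1 high in both wild-type groups, and Ryr3 is above 1 CPM only in AT-3 with wild-type MRTFA.

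Wild-type MRTFA in AT-3 went with higher levels of Itpr1, Ryr1, Ryr2, Ryr3 and Atp2a2 and with a lower level of Itpr3. These 5 rises and 1 fall were 6 of 9 genes past the test, and 68.6% of all genes passed it, 36.4% upward and 32.2% downward. The median log2 fold change was 0.45 over the 9 genes and 0.07 over all genes tested. Groups did not overlap for 6 of 9 genes, against 74.5% of all genes. In E0771 with wild-type MRTFA, 3 of 9 genes passed, Itpr1 and Ryr2 upward and Itpr3 downward, where 24.5% of all genes did, 11.2% upward and 13.3% downward. The median there was 0.17 over the 9 genes and -0.05 over all genes, and 5 of 9 had groups that did not overlap, against 41.5% of all genes. The count of members past the test is near the background in AT-3, so the account below turns on single genes and their sizes.

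Itpr3 encodes the type 3 IP3 receptor, known from secretory epithelia, and lies on chromosome 17 (GRCm38, 27057304 to 27122223, plus strand, 58 exon blocks). In AT-3 it had 83.2, 93.1 and 93.8 CPM with wild-type MRTFA, against 307, 298 and 275 CPM with empty vector. Its 3 wild-type libraries were below all empty vector libraries by a wide margin. The log2 fold change was -1.71 ± 0.05 (SE, adjusted p = 2.64e-16), a ratio of 0.307. E0771 libraries had 165, 181 and 180 CPM with wild-type MRTFA, against 242, 245 and 241 CPM with empty vector. The groups did not overlap there either, and the log2 fold change was -0.47 ± 0.05 (adjusted p = 6.30e-07), a ratio of 0.723. Both falls kept their call in every alternative tried. Over the 6 groups the order of Itpr3 was AT-3 empty vector (293 ± 16.9 CPM), E0771 Y238A (272 ± 4.90), AT-3 Y238A (267 ± 7.97), E0771 empty vector (243 ± 1.70), E0771 wild type (175 ± 9.18) and AT-3 wild type (90.0 ± 5.90). Neighbours among the first 3 of these overlapped in range, and the others did not.

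Itpr1 encodes the type 1 receptor, known as the main form of Purkinje neurons and smooth muscle, and lies on chromosome 6 (108213096 to 108551109, plus strand). In AT-3 it had 118, 103 and 102 CPM with wild-type MRTFA, against 50.6, 47.2 and 46.7 CPM with empty vector. Every wild-type library stood above every empty vector library, and the log2 fold change was 1.16 ± 0.06 (adjusted p = 5.36e-13), 2.24-fold. The E0771 values were 72.4, 71.3 and 70.3 CPM with wild-type MRTFA, against 65.8, 64.3 and 60.7 CPM with empty vector. These groups also stood apart, but the difference was small, 0.17 ± 0.06 on the log2 scale (adjusted p = 0.0417). It no longer passed with library totals, with no filter, without the 4 libraries that shared most transcripts (adjusted p = 0.177) or without any single library of the E0771 wild-type and empty vector groups but empty vector replicate 1 (adjusted p 0.0705 to 0.171).

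Itpr2, on chromosome 6 (146108299 to 146502223, minus strand), encodes the type 2 receptor, known for high IP3 affinity and for its place in liver and heart. It had 14.3, 12.3 and 10.3 CPM with wild-type MRTFA in AT-3, against 17.5, 14.4 and 13.1 CPM with empty vector. The groups overlapped, and the log2 difference of -0.29 (95% interval -0.62 to 0.05, adjusted p = 0.118) did not pass. It passed with library totals (-0.44, adjusted p = 0.0217), and without AT-3 wild-type replicate 1 (-0.41, adjusted p = 0.0481). In E0771 it had 8.76, 8.54 and 8.72 CPM with wild-type MRTFA, against 9.65, 9.54 and 8.75 CPM with empty vector, with a log2 difference of -0.10 (-0.44 to 0.24, adjusted p = 0.712).

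**Figure D3:**
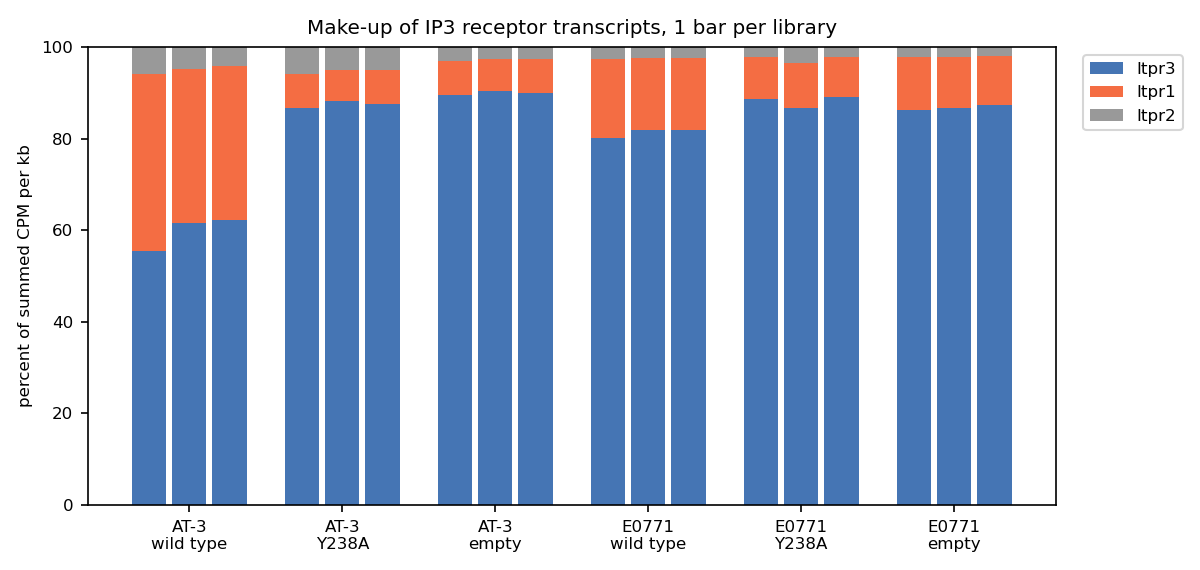
Share of Itpr3, Itpr1 and Itpr2 in the summed IP3 receptor level (percent of CPM per kilobase), 1 bar for each of the 18 libraries. Itpr3 makes up 55.5% to 62.3% in the wild-type libraries of AT-3 and 80.1% to 90.3% in all other libraries.

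The make-up of the IP3 receptor transcripts shifted with these opposite changes. Per kilobase, Itpr3 was 59.8% ± 3.74 of the family in AT-3 with wild-type MRTFA, 87.5% ± 0.788 with Y238A and 89.9% ± 0.345 with empty vector (SD, n = 3 each). Itpr1 was 35.2% ± 3.01 with wild-type MRTFA, 7.16% ± 0.418 with Y238A and 7.27% ± 0.243 with empty vector. In E0771 the shares of Itpr1 were 16.3% ± 0.886, 9.36% ± 0.481 and 11.2% ± 0.376 in the same groups, and those of Itpr3 were 81.3% ± 1.01, 88.1% ± 1.23 and 86.8% ± 0.464. The summed IP3 receptor level was 16.7 ± 0.0684 CPM per kilobase with wild-type MRTFA, 33.8 ± 0.728 with Y238A and 36.2 ± 2.11 with empty vector in AT-3. In E0771 it was 23.9 ± 0.965, 34.3 ± 0.146 and 31.0 ± 0.303. The wild-type libraries had the lowest sum in both lines, and the bars of make-up by library show the shift in all 3 AT-3 wild-type libraries. The sums are a description, as an exact permutation test of 3 libraries against 3 cannot give a p-value under 0.1.

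Ryr3 encodes the ryanodine receptor known from brain and, at low levels, from diaphragm and smooth muscle, and lies on chromosome 2 (112631355 to 113217096, minus strand). In AT-3 it had 30.8, 22.3 and 18 CPM with wild-type MRTFA, against 0.243, 0.400 and 0.248 CPM with empty vector. Its wild-type libraries stood far above the others, with a log2 fold change of 6.30 ± 0.39 (adjusted p = 1.06e-10), 78.6-fold. In E0771 the same gene had 0, 10 and 2 counts with wild-type MRTFA, against 3, 2 and 4 counts with empty vector. These groups overlapped, and the log2 difference of 0.44 (-1.88 to 2.76) was not distinguishable from no change at this depth. The 10 counts, 0.102 CPM, were in E0771 wild-type replicate 2, in which 0.508% of the AT-3 wild-type level of Ryr3 would be 0.120 CPM. Without that library the E0771 difference was -1.43 (adjusted p = 0.557). The part of shared transcripts in this value was not tested. Its length-scaled level in AT-3 with wild-type MRTFA was 1.25 ± 0.342 CPM per kilobase, beside 0.830 ± 0.134 for Itpr2 in the same libraries. The antisense gene Aven shares 916 exon bases, 4.83% of those of Ryr3, and the labels do not say whether counting used strand. Aven averaged 42.2 ± 2.04 CPM with wild-type MRTFA and 36.3 ± 0.674 CPM with empty vector in AT-3, a log2 difference of 0.22 ± 0.07. The part of Aven transcripts in the Ryr3 counts was not tested.

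Ryr1 encodes the release channel of skeletal muscle and lies on chromosome 7 (29003344 to 29125179, minus strand). In AT-3 it had 3.25, 3.15 and 3.74 CPM with wild-type MRTFA, against 0.301, 0.548 and 0.569 CPM with empty vector. The groups did not overlap, and the log2 fold change was 2.83 ± 0.27 (adjusted p = 8.67e-09), 7.13-fold. The level in E0771 was 2.69, 2.89 and 2.37 CPM with wild-type MRTFA, against 2.26, 1.97 and 2.29 CPM with empty vector. The wild-type values were all higher, yet the log2 difference of 0.29 (-0.21 to 0.78, adjusted p = 0.423) did not pass. The 3 wild-type libraries of AT-3 (3.38 ± 0.316 CPM) stood above every E0771 library, a difference between lines that was not tested.

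Ryr2, the release channel of the heart, lies on chromosome 13 (11553102 to 12106945, minus strand) and stayed low everywhere. In AT-3 it had 105, 80 and 82 counts with wild-type MRTFA, or 0.954 ± 0.0548 CPM, against 2, 0 and 0 counts with empty vector. The ratio was 126 (95% counting interval 34.4 to 1042), and the gene passed the test (adjusted p = 1.73e-05). The fitted log2 fold change moved between 6.74 with all libraries and 9.51 without AT-3 empty vector replicate 1, the library with the 2 counts. In E0771 it had 46, 21 and 30 counts with wild-type MRTFA, against 8, 12 and 0 counts with empty vector. The groups did not overlap, with a log2 fold change of 2.27 ± 0.82 at the edge of the threshold (adjusted p = 0.0498). With the replicate number as a block, which pairs the libraries of these 2 groups, it was 2.35 and did not pass (adjusted p = 0.0820). It was 3.27 (adjusted p = 0.0312) without the 4 libraries that shared most transcripts, 3.04 (adjusted p = 0.0364) without empty vector replicate 2 and 1.68 (adjusted p = 0.136) without empty vector replicate 3, and it also did not pass without any 1 of the other 4 libraries of these groups (adjusted p 0.0518 to 0.139).

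Some markers of other cell types differed in the same libraries. The summed level of 7 skeletal muscle markers was 3.18 to 3.64 CPM with wild-type MRTFA and 0.0990 to 0.150 CPM with empty vector in AT-3, and 6.74 to 8.50 CPM with wild-type MRTFA and 0.0866 to 0.168 CPM with empty vector in E0771. Tnnt3 in AT-3 and Ckm in E0771 had the highest level among them with wild-type MRTFA, and Myog, a defining factor of skeletal muscle, was at 0 counts in both wild-type groups. The 5 cardiac markers summed to 116 to 123 CPM with wild-type MRTFA and 46.5 to 50.6 CPM with empty vector in AT-3, and to 9.62 to 12.2 CPM and 2.49 to 3.25 CPM in E0771. The members of that list went different ways in AT-3: Nkx2-5 averaged 107 ± 3.28 CPM with wild-type MRTFA and 26.5 ± 1.21 CPM with empty vector, and Tnnt2 averaged 7.17 ± 0.763 CPM with wild-type MRTFA and 21.1 ± 0.962 CPM with empty vector. In AT-3 the fibroblast markers summed to 88.3 to 103 CPM with wild-type MRTFA and 499 to 542 CPM with empty vector, mostly Pdgfrb, while Thy1 of the same list averaged 6.47 ± 1.14 CPM with wild-type MRTFA and 0.0612 ± 0.0141 CPM with empty vector. The 5 neuron markers of AT-3 summed to 14.3 to 17.1 CPM with wild-type MRTFA and 62.8 to 65.0 CPM with empty vector. Those sums were mostly Map2 and Tubb3, both lower with wild-type MRTFA. Rbfox3 of the same list averaged 0.400 ± 0.155 CPM with wild-type MRTFA and had 0 counts with empty vector. Syt1 averaged 0.160 ± 0.0827 and 0.0665 ± 0.0404 CPM. The 5 endothelial markers of AT-3, led by Vwf with wild-type MRTFA, summed to 13.7 to 16.3 CPM and 2.79 to 2.82 CPM. The 5 leukocyte markers, nearly all Cd68, summed in AT-3 to 21.1 to 21.4 CPM with wild-type MRTFA and 3.03 to 3.95 CPM with empty vector. With Y238A this sum was higher still, at 70.0 to 75.4 CPM. In E0771 it was 2.84 to 3.30 CPM with wild-type MRTFA, 11.5 to 17.2 CPM with Y238A and 2.92 to 4.71 CPM with empty vector. The part of these markers in the values of the channels and pumps was not tested. Summed over the family, ryanodine receptor transcripts were 1.44 ± 0.335 CPM per kilobase with wild-type MRTFA, 0.0419 ± 0.0149 with Y238A and 0.0376 ± 0.00950 with empty vector in AT-3. In E0771 the sums were 0.135 ± 0.0118, 0.0828 ± 0.0310 and 0.103 ± 0.00680, with Ryr1 as 89.9% ± 1.21 of the family in the wild-type group, where in AT-3 Ryr3 was 86.4% ± 3.77 of it.

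Atp2a2 encodes SERCA2, the pump of nearly all cells, and lies on chromosome 5 (122453513 to 122502225, minus strand). In AT-3 it had 628, 644 and 674 CPM with wild-type MRTFA, against 481, 465 and 483 CPM with empty vector. All wild-type libraries were higher, and the log2 fold change was 0.45 ± 0.04 (adjusted p = 2.73e-09), 1.36-fold. E0771 libraries had 471, 475 and 467 CPM with wild-type MRTFA, against 431, 444 and 438 CPM with empty vector. The groups did not overlap, and the log2 difference of 0.11 ± 0.04 just missed the threshold (adjusted p = 0.0540). It passed with DESeq2 (adjusted p = 0.00191), with DESeq2's size factors (0.0182), with a stricter filter (0.00120) and with E0771 fitted alone (0.0109). Atp2a2 was 98.8% to 99.9% of the SERCA family level per kilobase in every group mean.

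Atp2a3 encodes SERCA3, known from blood cells and some epithelia, and lies on chromosome 11 (72961169 to 72993044, plus strand). It had 0.989, 0.830 and 0.788 CPM with wild-type MRTFA in AT-3, against 0.937, 1.01 and 0.990 CPM with empty vector, and the log2 difference of -0.17 (-1.19 to 0.85) did not pass. The E0771 values were 4.38, 2.04 and 2.58 CPM with wild-type MRTFA, against 2.06, 1.22 and 1.35 CPM with empty vector, and 0.96 (0.02 to 1.90, adjusted p = 0.134) did not pass. Atp2a1, the pump of fast skeletal muscle on chromosome 7 (126445858 to 126463108, minus strand), was the least counted of the SERCA genes. It had 3 to 8 counts with wild-type MRTFA and 4 to 24 counts with empty vector in AT-3, and 4 to 17 counts and 5 to 28 counts in E0771. Rabep2, on the opposite strand, shares 763 exon bases, 21.9% of those of Atp2a1, and averaged 27.7 to 45.4 CPM over the groups, so the few counts of Atp2a1 are uncertain.

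**Figure D4:**
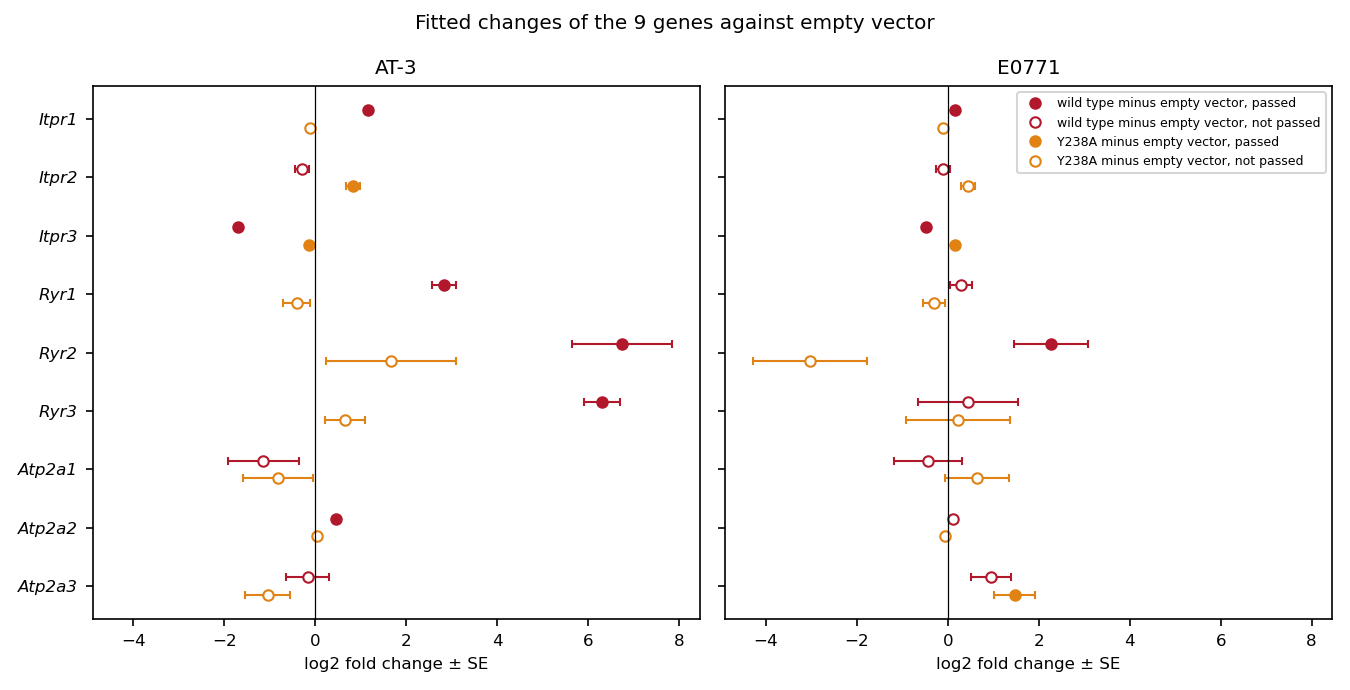
Log2 fold change ± SE of the 9 genes with wild-type MRTFA (red) and Y238A MRTFA (orange), each against empty vector, in AT-3 (left) and E0771 (right), with filled points for an adjusted p under 0.05. In AT-3 the wild-type points of Ryr1, Ryr2 and Ryr3 lie above 2 and that of Itpr3 below -1, while the largest Y238A point that passed in AT-3 is Itpr2 at 0.83.

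The Y238A groups were set against empty vector in the same way. In AT-3, 2 of 9 genes passed the test against empty vector, where 43.7% of all genes did, 21.4% upward and 22.2% downward, and 5 of 9 had groups that did not overlap, against 56.9% of all genes. Itpr2 rose, with 28.3, 25.6 and 25.8 CPM with Y238A and 17.5, 14.4 and 13.1 CPM with empty vector. All Y238A libraries were higher, and the log2 fold change was 0.83 ± 0.16 (adjusted p = 2.59e-04), 1.77-fold. Itpr3 had 258, 273 and 271 CPM with Y238A and 307, 298 and 275 CPM with empty vector, a log2 fold change of -0.14 ± 0.05 (adjusted p = 0.0376). That small fall no longer passed with library totals (adjusted p = 0.0547), with no filter (0.0593), without the 4 libraries that shared most transcripts (0.186) or without any 1 of 5 libraries (every one but AT-3 empty vector replicate 3, adjusted p 0.0522 to 0.200). The ryanodine receptors did not pass: Ryr1 was at -0.41 (-1.03 to 0.20), Ryr2 at 1.66 (-1.33 to 4.64) and Ryr3 at 0.65 (-0.29 to 1.59) on the log2 scale. Ryr3 had 0.735 CPM in AT-3 Y238A replicate 1 and 0.390 and 0.283 CPM in the others, and 1.29% of the AT-3 wild-type level would be 0.306 CPM. Atp2a2 was at 0.04 (-0.04 to 0.12). Atp2a3 was at -1.05 (-2.12 to 0.02, adjusted p = 0.107) and did not pass, although its groups did not overlap.

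In E0771, 2 of 9 genes passed against empty vector, where 12% of all genes did, 5.41% upward and 6.64% downward, and 2 of 9 had groups that did not overlap, against 26.1% of all genes. Itpr3 had 274, 267 and 276 CPM with Y238A and 242, 245 and 241 CPM with empty vector, a log2 fold change of 0.17 ± 0.05 (adjusted p = 0.0385). It no longer passed with no filter (adjusted p = 0.0570), without the 4 libraries that shared most transcripts (0.198) or without any 1 of 5 libraries (every one but Y238A replicate 2, adjusted p 0.0873 to 0.107). Atp2a3 had 2.49, 8.56 and 1.83 CPM with Y238A and 2.06, 1.22 and 1.35 CPM with empty vector. The groups overlapped, and the log2 fold change of 1.47 ± 0.45 (adjusted p = 0.0410) was 0.48 (adjusted p = 0.374) without Y238A replicate 2. It also did not pass without empty vector replicate 2 or 3 (adjusted p = 0.149 and 0.129), without the 4 libraries that shared most transcripts (0.0854), with the line fitted alone (0.153) or with no filter (0.0811). Y238A replicate 2 also had the highest values of its group for Itpr2, with 10.5, 17.1 and 10.5 CPM, and for Ryr1, with 1.54, 2.50 and 1.26 CPM. Its share of the AT-3 level over the 240 genes was 0.0616%. The Itpr2 difference of 0.45 (0.11 to 0.78, adjusted p = 0.0769) did not pass, but did with DESeq2 (0.0304) and without Y238A replicate 1 or 3 (0.0381 and 0.0318), and it was 0.17 (0.436) without Y238A replicate 2. Ryr2 had 2 counts with Y238A and 20 with empty vector, a ratio of 0.106 (95% counting interval 0.0120 to 0.435), and its log2 difference of -3.03 (-5.66 to -0.39, adjusted p = 0.129) did not pass. It passed without empty vector replicate 3 (-3.61, adjusted p = 0.0490), and was -5.72 (0.0667) without Y238A replicate 3 and -1.68 (0.593) without the 4 libraries that shared most transcripts. Ryr1 (-0.30, -0.80 to 0.20) and Ryr3 (0.22, -2.19 to 2.63) did not pass.

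Wild-type MRTFA was also set directly against Y238A. Construct levels were higher with wild type than with Y238A in both lines, as given above. The mutation and the construct level therefore cannot be told apart in this comparison. In AT-3, 7 of 9 genes passed, 5 higher and 2 lower with wild-type MRTFA, where 66.2% of all genes passed, 34.8% higher and 31.4% lower, and 8 of 9 had groups that did not overlap, against 72.9% of all genes. Itpr1 was 1.28 ± 0.06 higher on the log2 scale, Ryr1 3.25 ± 0.27, Ryr3 5.65 ± 0.37 and Atp2a2 0.41 ± 0.04. Ryr2 had 267 counts over the wild-type group and 8 over the Y238A group, a fitted difference of 5.08 ± 0.92, which was 6.36 without Y238A replicate 1. Itpr3 was lower by -1.57 ± 0.05 and Itpr2 by -1.11 ± 0.16 (adjusted p = 4.95e-06). Itpr2 thus differed between wild type and Y238A without a call between wild type and empty vector.

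In E0771, 5 of 9 genes passed between wild type and Y238A, 3 higher and 2 lower, where 25.7% of all genes passed, 12.7% higher and 13.0% lower, and 5 of 9 had groups that did not overlap, against 36.2% of all genes. Itpr3 was lower with a log2 difference of -0.63 ± 0.05 (adjusted p = 5.84e-09), and Itpr1 was higher by 0.28 ± 0.06 (adjusted p = 9.63e-04). Atp2a2 was higher by 0.15 ± 0.04 (adjusted p = 0.00498), which was 0.15 (adjusted p = 0.0769) without the 4 libraries that shared most transcripts. Ryr2 had 97 counts over the wild-type group and 2 over the Y238A group, a ratio of 47.1 (95% counting interval 12.7 to 394, adjusted p = 0.00119). Its fitted log2 difference was 5.29, and 7.98 without Y238A replicate 3, which held both Y238A counts. Itpr2 was at -0.55 ± 0.16 (adjusted p = 0.0153), at -0.27 (0.110) without Y238A replicate 2 and at -0.54 (0.0502) without wild-type replicate 2. Ryr1 was at 0.59 (adjusted p = 0.0782, and 0.0493 with DESeq2), and at 0.92 (0.00543) without Y238A replicate 2.

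The effects of wild-type MRTFA differed between the lines for 6 of 9 genes by the interaction test, where 47.3% of all genes did, 24.0% with a more positive and 23.3% with a more negative effect in AT-3. The effect was more positive in AT-3 for Itpr1, Ryr1, Ryr2, Ryr3 and Atp2a2 and more negative for Itpr3. Itpr1, Itpr3 and Ryr2 passed in both lines and moved the same way in each. The E0771 calls of Itpr1 and Ryr2 were lost in several alternatives, as given above, and that of Itpr3 in none. The effects of these genes differed between lines by 1.0 ± 0.08 for Itpr1, -1.24 ± 0.07 for Itpr3 and 4.47 ± 1.45 for Ryr2 on the log2 scale. The Y238A effects differed for 2 of 9 genes, Itpr3 and Atp2a3, both more negative in AT-3, where 25.8% of all genes did, 12.2% of all genes in that direction. MRTFA construct levels were also higher in AT-3 than in E0771, as given above, and line and construct level cannot be told apart.

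**Figure D5:**
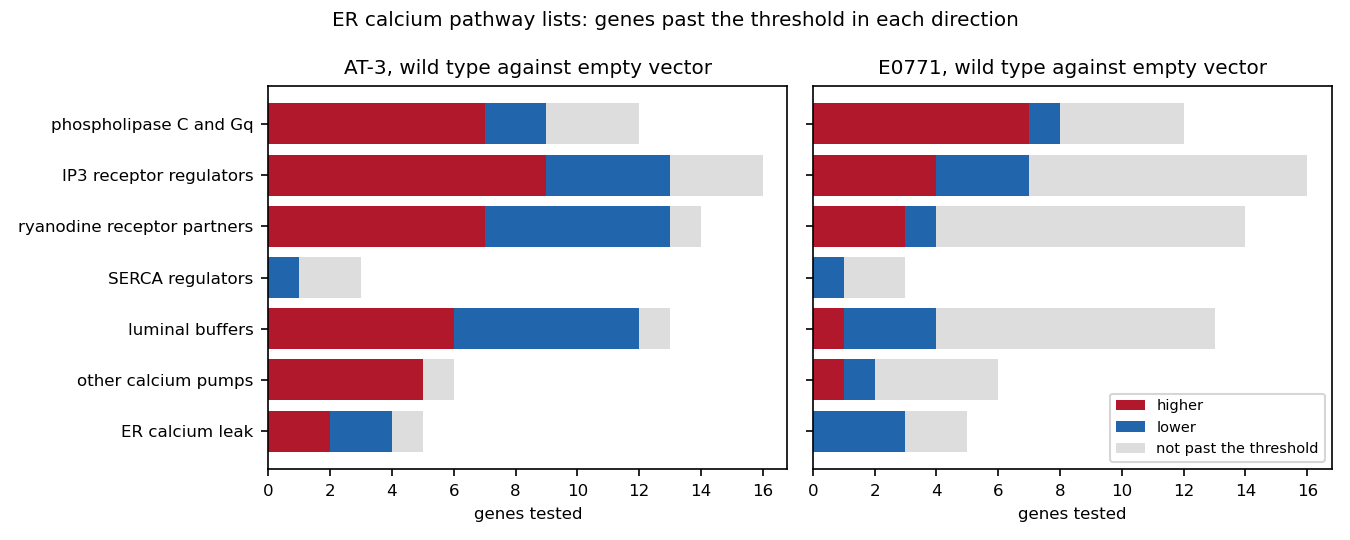
Genes of 7 lists around the ER calcium store that were higher (red), lower (blue) or not past the threshold (grey) with wild-type MRTFA against empty vector, AT-3 left and E0771 right, in numbers of genes tested. In the phospholipase C and Gq list 7 of 12 genes are higher in both lines, beside 36.4% of all genes in AT-3 and 11.2% in E0771.

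Around these channels and pumps, 76 genes in 7 lists were read in the same way, of which 69 were tested. With wild-type MRTFA in AT-3, 36 were higher and 21 lower, 82.6% of those tested, beside 68.6% of all genes. In E0771, 16 were higher and 13 lower, 42%, beside 24.5% of all genes. Median log2 fold changes over all lists were 0.35 and -0.01, beside 0.07 and -0.05 over all genes.

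Of 12 phospholipase C and Gq genes tested, 7 were higher and 2 lower with wild-type MRTFA in AT-3 (median log2 0.91), where 36.4% of all genes were higher and 32.2% lower. In E0771, 7 were higher and 1 lower (median 0.48), where 11.2% of all genes were higher and 13.3% lower. Plcb4, a Gq-activated phospholipase C, had 77.3 ± 8.04 CPM with wild-type MRTFA and 10.6 ± 0.390 CPM with empty vector in AT-3. In E0771 it had 16.2 ± 1.30 CPM and 0.390 ± 0.115 CPM, with log2 fold changes of 2.86 ± 0.19 and 5.38 ± 0.25. Plcd3, a calcium-sensitive phospholipase C, had 173 ± 12.7 CPM with wild-type MRTFA and 22.8 ± 0.557 CPM with empty vector in AT-3, a log2 fold change of 2.92 ± 0.07, beside 0.54 ± 0.06 in E0771. Plcg1, which acts below tyrosine kinases, fell by 1.21 on the log2 scale in AT-3, and Gna11, a G protein of the Gq class, was lower in both lines (-0.28 ± 0.08 and -0.24 ± 0.08).

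Of 16 genes that regulate IP3 receptors or metabolise IP3, 9 were higher and 4 lower in AT-3 (median 0.77), and 4 were higher and 3 lower in E0771 (median 0.00). These were 81.2% and 43.8% of those tested, beside 68.6% and 24.5% of all genes. Of all genes, 36.4% were higher and 32.2% lower in AT-3, and 11.2% and 13.3% in E0771. Mrvi1, also called Irag1, a smooth muscle protein through which cGMP kinase is known to inhibit IP3 receptors, had 120.3 ± 7.06 CPM with wild-type MRTFA and 0.767 ± 0.0854 CPM with empty vector in AT-3. In E0771 it had 36.5 ± 2.19 CPM and 0.224 ± 0.109 CPM, and the log2 fold changes were 7.30 ± 0.32 and 7.33 ± 0.36. The change of Mrvi1 did not differ detectably between lines (-0.03 ± 0.49), whereas that of most IP3 and ryanodine receptors did. Ahcyl2, a relative of the IP3 receptor inhibitor IRBIT, was higher in AT-3 (0.96 ± 0.05) and at -0.07 in E0771 (adjusted p = 0.410). Erlin1, which takes activated IP3 receptors to degradation, was lower in both lines (-0.98 ± 0.06 and -0.36 ± 0.06).

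Of 14 ryanodine receptor partners, 7 were higher and 6 lower in AT-3 (median 0.07), and 3 were higher and 1 lower in E0771 (median 0.17). These were 92.9% and 28.6% of those tested, beside 68.6% and 24.5% of all genes, so the share in E0771 was near that of the whole table. Of all genes, 36.4% were higher and 32.2% lower in AT-3, and 11.2% and 13.3% in E0771. Fkbp1a, which binds and stabilises closed ryanodine receptors, had 1027 ± 30.7 CPM with wild-type MRTFA and 622 ± 4.86 CPM with empty vector in AT-3, beside 564 ± 9.01 and 478 ± 12.1 CPM in E0771. The log2 fold changes of Fkbp1a were 0.72 ± 0.04 and 0.24 ± 0.04. Sri, sorcin, which inhibits ryanodine receptors, was lower in AT-3 (-0.77 ± 0.05) and at -0.11 in E0771 (adjusted p = 0.134), and Asph, whose locus also gives the junctional protein junctin, was lower in both (-0.44 ± 0.05 and -0.38 ± 0.05). Trdn, triadin, and Cacna1s, the muscle calcium channel that couples to Ryr1, were added to these after their values were seen. Trdn had 872 counts over the AT-3 wild-type group and 0 with empty vector, at least 273-fold higher when a floor of 3 counts stands for the group at 0, and 14 and 0 counts in E0771. Cacna1s had 79 and 0 counts in AT-3, at least 24.8-fold higher, and 251 and 8 counts in E0771.

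Of the SERCA regulators, 3 of 8 could be tested, and only S100a1, known as an activator of SERCA2 and ryanodine receptors in muscle, passed, lower with wild-type MRTFA in both lines (-0.93 ± 0.10 and -0.57 ± 0.10). Of 13 luminal buffers and chaperones, 6 were higher and 6 lower in AT-3 (median -0.03), and 1 was higher and 3 lower in E0771 (median -0.06). Of all genes, 36.4% were higher and 32.2% lower in AT-3, and 11.2% and 13.3% in E0771. The same shares stand beside the pump and leak lists below. Rcn2, a calcium-binding ER protein, was higher in both lines (0.68 ± 0.04 and 0.14 ± 0.04), and Canx, the chaperone calnexin, was lower in both (-0.54 ± 0.05 and -0.25 ± 0.05). Among 6 other calcium pumps, 5 were higher and 0 lower in AT-3 (median 1.92, and 1.75 with genes at 0 counts in the empty vector group set to their lower bound), and 1 was higher and 1 lower in E0771 (median -0.11). Atp2b3, a plasma membrane calcium pump of neurons, had 1590 counts over the AT-3 wild-type group and 0 with empty vector, at least 499-fold higher, and rose in E0771 by 2.05 ± 0.42. Atp2b1, the common plasma membrane pump, was higher in AT-3 (0.59 ± 0.06) and lower in E0771 (-0.17 ± 0.06). Of 5 genes for ER calcium leak, 2 were higher and 2 lower in AT-3 (median -0.10), and 0 were higher and 3 lower in E0771 (median -0.19). Tmco1, a channel against ER calcium overload, was at -0.40 ± 0.06 and Psen2 at 0.26 ± 0.10 in AT-3.

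With Y238A, 26 of the 69 genes were higher and 15 lower in AT-3, 59.4% beside 43.7% of all genes, and 7 were higher and 8 lower in E0771, 21.7% beside 12%. Of the 13 luminal buffers, 8 were higher and 2 lower in AT-3 (median 0.36), where 21.4% of all genes were higher, and 4 were higher and 2 lower in E0771 (median -0.04), where 5.41% of all genes were higher. Pdia4, an ER folding enzyme, had 848 ± 8.19 CPM with Y238A and 264 ± 5.67 CPM with empty vector in AT-3, and 438 ± 31.9 CPM and 299 ± 9.51 CPM in E0771, with log2 fold changes of 1.68 ± 0.05 and 0.55 ± 0.05. Casq2, the luminal calcium buffer of cardiac muscle, was higher with Y238A in AT-3 (3.53 ± 0.61) and in E0771 (2.00 ± 0.40), and also with wild-type MRTFA (6.95 ± 0.55 and 1.88 ± 0.40). In AT-3 it had 108 counts with Y238A, 1096 with wild-type MRTFA and only 8 with empty vector, so the AT-3 sizes are uncertain. The E0771 counts were 320, 306 and 84 in the same groups.

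The genes whose log2 CPM followed each member most closely over the 18 libraries were found among 11614 genes, as a description with no test. Atp2a2 was followed most closely by Fkbp1a (Pearson r of 0.982) and Etfdh (0.980), and Itpr3 by Cep170b (0.989) and Orai3 (0.983), a plasma membrane store-operated channel subunit. Orai3 had 6.59 ± 0.575 CPM with wild-type MRTFA, 17.0 ± 0.644 CPM with Y238A and 17.9 ± 1.36 CPM with empty vector in AT-3, and 12.9 ± 0.838, 17.1 ± 1.23 and 17.3 ± 0.452 CPM in E0771. Itpr1 was followed by Nit2 (0.991), Itpr2 by Hdac4 (0.944) and Tmem231 (0.942), Ryr1 by Rdh13 (0.978) and Zfp568 (0.977), Ryr3 by Pcp4l1 (0.993) and Armcx6 (0.992), and Atp2a3 by Arhgef2 (0.938) and Cyb5r1 (0.924). The points share 6 groups, so most of each r reflects the group means.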

How the data were processed

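Per the labels' protocols, RNA was purified with RNeasy columns and sequencing libraries came from the NuGen Universal Plus mRNA kit. Per the submitters' processing notes, the tools were STAR and featureCounts and the build GRCm38, with no versions given. The deposited table holds raw counts per gene as the authors made them. The annotation release and strandedness are not given in the sources used here. Between 61.9% and 64.6% of nonzero counts were even, so mates of a read pair may have been counted separately, and the 95% counting intervals cover counting error only and may be too narrow.

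Counts were fitted in R 4.3.3 with edgeR 4.0.16: filterByExpr (minimum count 10, minimum total 15), TMM, robust quasi-likelihood F tests, 6 group means over 18 libraries with 12 residual degrees of freedom, and Benjamini-Hochberg adjustment over 17841 genes with a threshold of 0.05. The test was also run on simulated counts in which a small set of well-counted genes was changed. That run does not bear on genes with few counts or on comparisons in which most genes passed. Its outcome is not reported here. Levels between genes were compared per kilobase of merged exons of the GENCODE M21 annotation (GRCm38), from which positions also come, and promoters are RefSeq's. Differences between lines are AT-3 minus E0771. The 9 genes, the lists and the markers were chosen with earlier results of these data known. Named genes are the 9 members, the 2 with the highest r for each member with a mean of at least 1 CPM (log2 of CPM plus 0.1), and from each list the gene with the smallest p in each direction, with others named as later additions. For 2 of the genes so chosen the result is not reported here. Alternatives were DESeq2 1.42.0, its size factors, library totals, each line alone, tests without a filter or with a narrower one (1 CPM or more in 3 libraries, 50 counts on average), a replicate block, and libraries left out. Between wild type and empty vector in E0771 the 3 same-numbered pairs of libraries deviated together (r of 0.37, 0.44 and 0.34, all over 0.1), so the numbers pair these samples, as the data show and not the labels, and the blocked value is given where it changes a call. Figures were drawn with matplotlib 3.10.9.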

Additional observations from a re-analysis of the deposited data

Results flagged for a closer look

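Values here are log2 differences of the effect against empty vector, AT-3 minus E0771, each with the effects in both lines, and were picked because the interaction test of edgeR passed at an adjusted p under 0.05. For wild-type MRTFA, Itpr1 differed by 1.0 (adjusted p = 4.40e-09, 1.16 in AT-3 and 0.17 in E0771), in the same direction in both lines. Itpr3 differed by -1.24 (adjusted p = 2.95e-11, -1.71 in AT-3 and -0.47 in E0771), also in the same direction. Ryr1 differed by 2.55 (adjusted p = 5.06e-06, 2.83 in AT-3 and 0.29 in E0771, where it did not pass). Ryr2 differed by 4.47 (adjusted p = 0.0151, 6.74 in AT-3 and 2.27 in E0771), by 3.46 (0.0861) without the 4 libraries that shared most transcripts, by 3.71 (0.0631) without E0771 empty vector replicate 2 and by 7.25 (0.00988) without AT-3 empty vector replicate 1. Ryr3 differed by 5.86 (adjusted p = 0.00334, 6.30 in AT-3 and 0.44 in E0771, where it did not pass). Its difference was 7.90 (8.25e-04) without the 4 libraries that shared most transcripts. It was 7.74 (5.78e-04) without E0771 wild-type replicate 2 and 5.19 (0.00357) without E0771 wild-type replicate 1. Atp2a2 differed by 0.34 (adjusted p = 3.12e-05, 0.45 in AT-3 and 0.11 in E0771, where it did not pass). For Y238A, Itpr3 differed by -0.30 (adjusted p = 0.00366), as it was lower in AT-3 (-0.14) and higher in E0771 (0.17). Atp2a3 differed by -2.52 (adjusted p = 0.0101, -1.05 in AT-3, where it did not pass, and 1.47 in E0771). It differed by -1.52 (0.0114) without E0771 Y238A replicate 2.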

How the results depend on the processing

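Over all alternatives, 1090 of 1191 member values kept their direction and their side of the threshold, 52 lost a call, 22 gained one and 27 changed sign, none of the last with a call in either setting. With other settings the signs changed for Atp2a1 between lines with empty vector (-0.05 with library totals and -0.35 without the 4 libraries that shared most transcripts), for Itpr1 in the difference of Y238A effects (0.01 with no filter) and for Ryr3 in E0771 without those 4 libraries (-1.61 for wild type and -0.03 for Y238A against empty vector, -1.58 for wild type against Y238A). Over single libraries left out, Atp2a1 ranged over -0.85 to 0.91 between lines with empty vector, -1.21 to 0.06 for Y238A in AT-3, -0.82 to 0.46 for wild type in E0771 and -1.60 to 0.16 in the difference of wild-type effects. Likewise the difference of Y238A effects ranged over -0.02 to 0.04 for Itpr1, -0.34 to 0.23 for Ryr1 and -0.08 to 1.16 for Ryr3. Ryr3 in E0771 ranged over -1.43 to 1.10 for wild type, -0.51 to 0.73 for Y238A and -1.65 to 0.94 between these constructs, where Atp2a3 ranged over -0.89 to 0.48. With all libraries or without the 4, the numbers of members called moved by over 1.5 times for Y238A against empty vector: in AT-3 from 2 to 1 with library totals, with no filter and without the 4 libraries that shared most transcripts, and in E0771 from 2 to 0 with no filter or without those 4 libraries and to 1 with each line fitted alone or with the replicate block. Without those 4 libraries, E0771 had 2762 genes called for wild type (4364 with all) and 843 for Y238A (2149 with all), and 6 list genes for Y238A (15 with all), with fewer samples in the fit. With single libraries left out, members called ranged over 1 to 2 for Y238A in AT-3, 1 to 2 for wild type in E0771 (3 with all) and 0 to 2 for Y238A in E0771, where genes called ranged over 1251 to 2340 and list genes over 9 to 15. Library totals moved the median of all genes by -0.14 for wild type against empty vector and by -0.16 for wild type against Y238A in AT-3, and by -0.13 for the difference of wild-type effects. The share of calls that were higher was then 42.2% in place of 52.6% for wild type against Y238A in AT-3, 37.8% in place of 49.4% for the same in E0771, 59.0% in place of 44.9% for Y238A in E0771 and 40.2% in place of 50.8% for the difference of wild-type effects. No member call given in the report turned in direction under any scaling. In comparisons other than wild type against empty vector in E0771 the replicate numbers did not pair the samples by the rule used. Over all 18 pairs same-numbered libraries correlated at -0.16 to 0.44, over 0.1 in 7. Of the 18 pairs, 14 correlated best with their own number, a hint from the data and not from the design. Every AT-3 pair was among the 14, at r of 0.01 to 0.20. Under the replicate block Ryr2 in E0771 with wild type (2.35, adjusted p = 0.0820) and between lines (-3.02, 0.0667), and Itpr3 (0.17, 0.0521) and Atp2a3 (1.33, 0.0880) in E0771 with Y238A did not pass, while Itpr2 there did (0.42, 0.0402). The block changed no other call of a member between wild type and empty vector in E0771. At these depths Atp2a1, Ryr2 and, in E0771, Ryr3 rest on few counts, which limits what can be seen of them.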
